A study of Mus musculus with 24 samples.

Results

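The 10 genes described here are components of the circadian clock: the activators Arntl and Npas2, the repressors Per1, Per2, Per3, Nr1d1 and Nr1d2, and the clock-controlled transcription factors Dbp, Tef and Nfil3. They are 10 of 35855 genes quantified in 24 RNA sequencing libraries of mouse tracheal epithelium. They were picked because earlier results of the same libraries showed them to differ between the 2 batches of the series, so every difference between batches in a member is given as a description, without a test. Levels of the members across the 3 sorted cell groups were tested. As the members were chosen with earlier results of these libraries known, those tests may not be independent of the choice.

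Each library came from 1000 cells sorted from the trachea of naïve, wild-type female mice, which the series title gives as C57BL/6. There were 3 groups of 8 libraries: cells with high BCAM, the basal cell adhesion molecule, a laminin-binding surface protein; cells with low BCAM; and cells labelled as differentiated epithelial cells. In each group replicates 1 to 5 belonged to batch 1 and replicates 6 to 8 to batch 2. No source used here says what a batch was (a sort day, a library preparation or a sequencing run) or at what time of day tissue was taken. No treatment, transgene or mutation is labelled, so the labels separate libraries by sort gate and batch alone.

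The circadian clock is a transcriptional feedback loop that runs in almost every cell. A dimer of BMAL1, the product of Arntl, with CLOCK or NPAS2 binds E-boxes and activates the Per, Cry, Nr1d1, Nr1d2, Dbp and Tef genes. PER and CRY proteins then repress the dimer, while REV-ERBα and REV-ERBβ, the products of Nr1d1 and Nr1d2, bind RORE elements and repress Arntl, Npas2 and Nfil3. DBP and TEF activate through D-boxes, and NFIL3 represses through the same sites. Transcripts of Arntl, Npas2 and Nfil3 therefore peak at the opposite time of day from those of Dbp, Nr1d1, Nr1d2 and Per3 in mouse tissues, and secretory club cells of the airway are known to carry a working clock.

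Promoter sequence of RefSeq genes on GRCm38.p6 was searched for the letters of these elements, on both strands, in windows of 300 bases (250 before the start and 50 after it). The letters were CACGTG for the E-box, CACGTT for its variant and TTANGTAA for the D-box, together with the RORE consensus; no pattern contains another, but E-box and variant share their first bases. Of the 10 members 9 were matched, with 12 windows. Per2 had no window and was not searched. The stretches below are shown because they are the members' windows with an E-box or a D-box before the start; they are written 5′ to 3′ on the strand of the gene, with the matches in capitals.
Per1, chr11:69098699-69098948, plus strand, CACGTG at -166: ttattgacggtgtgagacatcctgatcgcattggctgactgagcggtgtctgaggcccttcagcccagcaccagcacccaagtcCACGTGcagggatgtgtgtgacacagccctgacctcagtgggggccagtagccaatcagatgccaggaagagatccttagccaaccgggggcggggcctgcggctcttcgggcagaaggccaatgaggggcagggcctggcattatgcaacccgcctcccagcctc
Per3, chr4:151044666-151044915, minus strand, TTATGTAA at -205 and -158: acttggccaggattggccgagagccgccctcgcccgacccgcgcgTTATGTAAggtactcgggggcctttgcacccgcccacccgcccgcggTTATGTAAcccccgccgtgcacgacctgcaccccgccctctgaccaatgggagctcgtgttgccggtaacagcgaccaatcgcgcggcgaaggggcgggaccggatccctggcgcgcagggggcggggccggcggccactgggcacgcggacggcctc
Tef first start, chr15:81802423-81802672, plus strand, CACGTG at -127: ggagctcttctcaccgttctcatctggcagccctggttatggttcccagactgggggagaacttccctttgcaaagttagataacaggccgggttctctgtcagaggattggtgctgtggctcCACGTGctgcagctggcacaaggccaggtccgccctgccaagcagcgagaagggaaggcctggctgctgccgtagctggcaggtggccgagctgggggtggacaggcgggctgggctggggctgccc
Tef second start, chr15:81811164-81811413, plus strand, CACGTG at -138: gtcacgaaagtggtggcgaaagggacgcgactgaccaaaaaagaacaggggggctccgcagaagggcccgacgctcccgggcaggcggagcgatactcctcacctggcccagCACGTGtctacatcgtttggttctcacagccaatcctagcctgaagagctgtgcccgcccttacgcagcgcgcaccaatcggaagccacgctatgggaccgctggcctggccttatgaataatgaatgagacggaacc

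Positions are counted from the transcription start, and each gives the first base of the match. CACGTG was in 7.15% of all 32851 windows of that length and the D-box letters in 2.32%. The variant CACGTT was in 4.68% of windows and, among the members searched, which leave out Per2, only in that of Nr1d1, on the opposite strand at -28. The RORE letters were in 0.606% of windows, and among the members searched in one window of Arntl. That match, AAGTAGGTCA, began at base 28 of the transcribed part, and the 30 bases around it are shown because Arntl is the target through which REV-ERB acts on the loop.
Arntl, chr7:113207528-113207557, plus strand: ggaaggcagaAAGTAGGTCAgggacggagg

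A match of letters is a description of the sequence and does not show that a factor was bound. The windows are short, and the letters of other elements of these promoters, which can lie farther away, were not searched.

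Library size and marker genes were examined first. Estimated counts totalled 1824619 to 4440072 per library, and pairwise correlations of log2 CPM within a group and batch were 0.871 to 0.946 across genes, which are not independent replicates. Levels are given as CPM, counts relative to a library total scaled by edgeR's TMM method. The summed level of 6 basal cell genes was 2624 to 4133 CPM in BCAM high, 1436 to 2085 CPM in BCAM low and 8.44 to 29.4 CPM in differentiated libraries, where Dlk2 was at 0 counts in batch 1 and Krt14 at 0 counts in batch 2. Marker levels moved with batch in all 3 groups. In differentiated libraries 7 secretory genes summed to 290051 to 423950 CPM in batch 1 and 13410 to 89552 CPM in batch 2, 7 immune genes to 18780 to 25241 CPM and 1352 to 14493 CPM, and 5 thyroid genes to 13682 to 25709 CPM and 48973 to 116143 CPM. Also there, 4 suprabasal and hillock genes summed to 1401 to 1822 CPM and 392 to 856 CPM, and 3 parathyroid genes to 189 to 17781 CPM and 0.411 to 238 CPM, the last with overlap. Among the immune genes Ptprc, Cd52, Cd3e and Cd79a did not pass the filter on low counts, while Lyz2, Cd74 and Fcer1g did. In BCAM low the suprabasal and hillock genes went from 1926 to 2141 CPM in batch 1 to 989 to 1292 CPM in batch 2, the secretory genes from 34446 to 55721 CPM to 63707 to 75056 CPM, and 8 ciliated genes from 484 to 573 CPM to 659 to 1070 CPM. In BCAM high 5 fibroblast genes went from 396 to 672 CPM to 168 to 218 CPM, and the ciliated genes from 522 to 664 CPM to 351 to 409 CPM. The basal cell genes there went from 2624 to 3111 CPM in batch 1 to 3339 to 4133 CPM in batch 2. Thyroid genes were at 78.9 to 1276 CPM in batch 2 of BCAM high against 1.47 to 39.3 CPM in batch 1. The part of these marker levels and changes in any batch or group difference below was not tested. In libraries made from pools of cells, fewer cells of a type and less RNA per cell cannot be told apart.

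The 10 members fell into 2 sets by batch. Arntl, Npas2 and Nfil3 were lower in batch 2 in all 3 groups, while Per2, Per3, Nr1d2 and Dbp were higher in all 3. In each of these 7 genes, all 3 batch 2 libraries lay outside the range of the 5 batch 1 libraries in each group. Over all 12211 genes tested, 0.672% lay higher in this way in all 3 groups and 1.20% lower; as the batch difference chose the members, nothing is read from that contrast. Within BCAM high, 6 members lay higher without overlap and 3 lower, beside 9.82% and 9.04% of all genes tested. BCAM low had the same counts, 6 higher and 3 lower, beside 9.89% and 8.41%. In the differentiated group 4 lay higher and 4 lower, beside 10.9% and 10.8%. The median absolute log2 difference over the members was 1.47, 1.45 and 1.20 in BCAM high, BCAM low and differentiated, against 0.32, 0.35 and 0.42 over all genes tested.

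**Figure D1:**
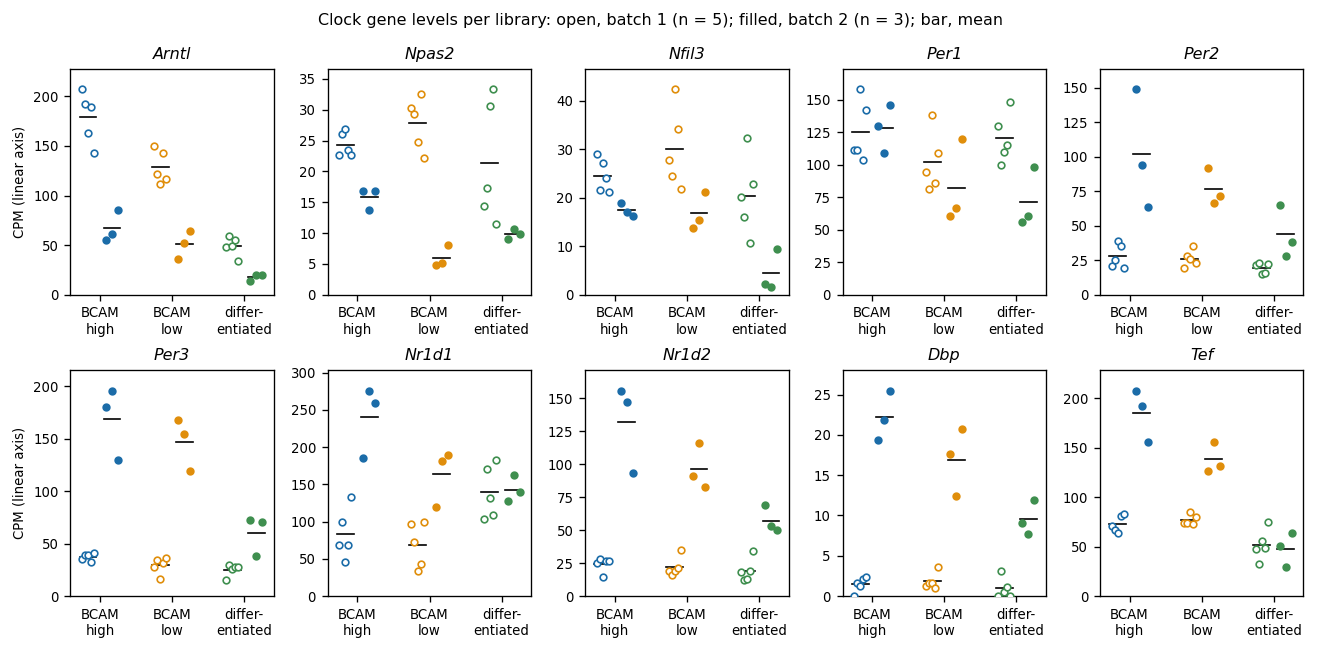
Level of each of the 10 clock genes in every library (CPM, linear scale), with groups side by side and batches marked. Points of batch 2 sit below those of batch 1 in all 3 groups for Arntl, Npas2 and Nfil3, and above them for Per2, Per3, Nr1d2 and Dbp.

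Arntl (chromosome 7, 113207465 to 113314126, plus strand; this and the following gene positions are GENCODE M21, build GRCm38) encodes BMAL1, the obligate partner in the activating dimer. In BCAM high it was at 207, 192, 163, 189 and 143 CPM in batch 1 and at 55.5, 60.8 and 85.1 CPM in batch 2. BCAM low gave 150, 122, 112, 143 and 117 CPM and then 35.7, 52.7 and 64.1 CPM. The differentiated libraries had 47.8, 58.8, 49.6, 55 and 33.8 CPM and then 14.1, 20 and 19.8 CPM. Every batch 2 library was thus below every batch 1 library of its group, and in both BCAM groups replicate 8 was the highest of batch 2. The log2 difference, batch 2 minus batch 1, was -1.41 (SE 0.19), -1.34 (SE 0.20) and -1.43 (SE 0.22) in the same order, that is, levels 2.66, 2.54 and 2.7 times as high in batch 1. Arntl was the member whose difference varied least between the groups.

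Npas2 (chromosome 1, 39193731 to 39363236, plus strand) encodes a CLOCK paralogue that can take CLOCK's place in the dimer. It averaged 24.3 ± 2.03 CPM in batch 1 and 15.9 ± 1.8 CPM in batch 2 of BCAM high (SD, n = 5 and 3). In BCAM low it averaged 27.8 ± 4.28 and 6.02 ± 1.78 CPM, and in differentiated 21.4 ± 9.89 and 9.86 ± 0.814 CPM. The batches did not overlap in any group, but the gap was narrow in differentiated libraries, where the lowest batch 1 value was 11.5 CPM and the highest batch 2 value 10.7 CPM, against 22.6 and 16.9 CPM in BCAM high and 22.2 and 8.07 CPM in BCAM low. The log2 differences were -0.61 (SE 0.28), -2.21 (SE 0.32) and -1.12 (SE 0.31). Batch 2 libraries of BCAM low held only 11, 12 and 16 Npas2 counts. On the deposited TPM values, which correct for transcript length and carry no TMM scaling, the BCAM high difference turned to 0.65.

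Nfil3 (chromosome 13, 52967209 to 52981073, minus strand) encodes the D-box repressor E4BP4. It was at 21.1 to 28.9 CPM in batch 1 and 16.3 to 18.8 CPM in batch 2 of BCAM high. Its range was 21.7 to 42.3 CPM and then 13.7 to 21.2 CPM in BCAM low, so that the batches there lay side by side with almost no gap. In differentiated libraries it was at 20.2, 16.1, 32.2, 10.6 and 22.9 CPM in batch 1 and 2.26, 1.71 and 9.46 CPM in batch 2. The log2 differences were -0.50 (SE 0.33), -0.85 (SE 0.34) and -2.13 (SE 0.41), the last becoming -3.36 without differentiated replicate 8. Replicates 6, 7 and 8 of differentiated held only 4, 4 and 23 Nfil3 counts. Nfil3 and Npas2 thus had their largest fitted difference in different groups; whether a member's batch difference itself differed between groups was not tested, for these or any other member.

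The PER proteins carry the negative limb of the loop. Per3 (chromosome 4, 151003652 to 151044665, minus strand), whose promoter window holds the paired D-box letters printed above, was at 35.3, 39.4, 38.7, 32.3 and 41.3 CPM in batch 1 of BCAM high and at 180, 196 and 130 CPM in batch 2. Values in BCAM low were 27.3, 34.5, 16.7, 31.6 and 35.9 CPM and then 168, 155 and 119 CPM. Differentiated libraries gave 15.6, 29.7, 25.9, 27.2 and 27.8 CPM and then 72.9, 38 and 70.4 CPM. No batch 2 library came within the batch 1 range of its group, and replicate 7 of differentiated came nearest. The log2 differences were 2.17 (SE 0.21), 2.33 (SE 0.21) and 1.25 (SE 0.23), or 4.5-fold, 5.05-fold and 2.39-fold.

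Per2 (chromosome 1, 91415982 to 91459324, minus strand), whose loss disrupts daily rhythms in mice, was at 20.9, 25.5, 39.2, 35.3 and 19.7 CPM in batch 1 of BCAM high and at 149, 94.4 and 64 CPM in batch 2. The BCAM low values were 19.2, 27.9, 25.8, 35.4 and 22.8 CPM and then 91.7, 66.9 and 71.6 CPM. In differentiated libraries it was at 21.9, 22.9, 15.3, 15.6 and 22.4 CPM and then 65, 28.2 and 38.3 CPM. Replicate 6 was the highest in each group. The log2 differences were 1.87 (SE 0.26), 1.55 (SE 0.27) and 1.15 (SE 0.29).

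Per1 (chromosome 11, 69095217 to 69109960, plus strand) did not follow the other PER genes. Per1 also responds acutely to glucocorticoids and to cAMP signalling. It averaged 125 ± 23.5 and 128 ± 18.5 CPM in batches 1 and 2 of BCAM high, with overlapping ranges and a log2 difference of 0.04 (SE 0.21). In BCAM low the averages were 102 ± 22.6 and 82.3 ± 32.4 CPM, again overlapping (-0.31, SE 0.22). In differentiated libraries Per1 was at 130, 99.6, 110, 115 and 148 CPM in batch 1 and at 55.9, 60.6 and 98.3 CPM in batch 2, without overlap (-0.75, SE 0.22). Its sign there was opposite to that of Per2 and Per3 in the same libraries, but on TPM the difference was -0.12 and the batches overlapped. In BCAM low the overlap rested on replicate 8, at 120 CPM, without which the difference was -0.69.

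Nr1d2 (chromosome 14, 18204054 to 18239127, minus strand), which encodes REV-ERBβ, was at 25.3, 28.4, 14.4, 26.4 and 26.9 CPM in batch 1 of BCAM high and at 156, 147 and 93.7 CPM in batch 2. In BCAM low it was at 19.2, 16.1, 19.2, 21.2 and 35 CPM and then 90.9, 116 and 82.7 CPM. The differentiated libraries gave 18.4, 11.8, 13.2, 18.9 and 34.4 CPM and then 68.9, 52.9 and 49.8 CPM. The batches lay far apart in all 3 groups, and replicate 5 was the highest of batch 1 in BCAM low and differentiated. The log2 differences were 2.44 (SE 0.26), 2.12 (SE 0.26) and 1.55 (SE 0.28).

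Nr1d1 (chromosome 11, 98767932 to 98775333, minus strand), which encodes REV-ERBα, differed between batches in the BCAM groups but overlapped in differentiated libraries. In BCAM high it was at 69.1, 100, 46.3, 67.9 and 133 CPM in batch 1 and at 186, 276 and 259 CPM in batch 2 (log2 difference 1.53, SE 0.33). BCAM low libraries had 97, 72.4, 33.2, 43.3 and 100 CPM and then 120, 181 and 189 CPM (1.24, SE 0.34). In differentiated libraries it was at 103, 170, 132, 109 and 183 CPM and then 127, 162 and 140 CPM (0.04, SE 0.34). Batch 1 levels in differentiated libraries overlapped the batch 2 range of BCAM low and lay below every batch 2 library of BCAM high. Nr1d1 shares 263 exon bases with Thra on the opposite strand, 8.55% of its own exon bases, and no source used here gives the strand setting of the counting, so reads of the shared bases could belong to either gene. Mean Thra was 27 and 22 CPM in batches 1 and 2 of BCAM high, 31.9 and 21.7 CPM in BCAM low, and 23.7 and 17.8 CPM in differentiated libraries. Its batches overlapped in each group, and the part of Thra reads in the Nr1d1 values was not tested.

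Dbp (chromosome 7, 45705088 to 45710203, plus strand) encodes the D-box activator whose transcript has among the widest daily swings known in mouse tissues. In BCAM high it was at 0, 1.58, 1.22, 2.06 and 2.4 CPM in batch 1 and at 19.4, 21.9 and 25.5 CPM in batch 2. Levels in BCAM low were 1.26, 1.66, 1.6, 1.02 and 3.55 CPM and then 17.6, 12.4 and 20.7 CPM. In differentiated libraries it was at 0, 3.09, 0.528, 1.11 and 0 CPM and then 9.04, 7.68 and 11.9 CPM. Dbp had the largest fold difference of the 10 in each group. The fitted log2 differences were 3.90 (SE 0.58), 3.18 (SE 0.57) and 3.33 (SE 0.69), or 14.9-fold, 9.04-fold and 10.1-fold. Without replicate 2 the differentiated value was 4.41. These values rest on few counts in batch 1, where a library held 0 to 16 Dbp counts against 16 to 86 in batch 2. Dbp shares 539 exon bases with Sphk2 on the opposite strand, 18% of its own. Mean Sphk2 was 23 and 22.6 CPM in batches 1 and 2 of BCAM high, 23.3 and 25.6 CPM in BCAM low, and 27.2 and 29.8 CPM in differentiated libraries.

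Tef (chromosome 15, 81802421 to 81826863, plus strand) encodes a D-box activator related to DBP, and both of its starts carry the E-box letters printed above. In BCAM high it was at 71.1, 67.3, 63.4, 80.8 and 83.2 CPM in batch 1 and at 208, 192 and 156 CPM in batch 2 (log2 difference 1.34, SE 0.19). BCAM low libraries gave 73.8, 74, 85.1, 72.4 and 79.8 CPM and then 127, 156 and 132 CPM (0.85, SE 0.19). Differentiated libraries overlapped, with 32.2 to 74.8 CPM in batch 1 and 29 to 63.4 CPM in batch 2 (-0.12, SE 0.21); on TPM this value was 0.46. Tef and Nr1d1 were the only members whose batches overlapped in the differentiated group.

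**Figure D2:**
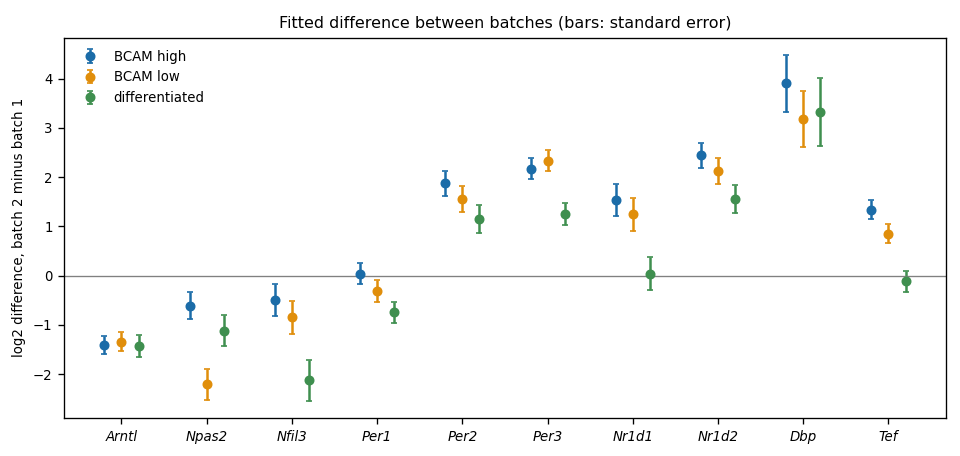
Fitted log2 difference between batches (batch 2 minus batch 1) for each member in BCAM high, BCAM low and differentiated libraries; bars are standard errors and the line marks no difference. Arntl sits between -1.43 and -1.34 in all groups, while Nr1d1 and Tef lie at 0.85 or higher in the BCAM groups and near 0 in differentiated libraries.

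Relative levels between genes were set side by side on the TPM scale, which accounts for transcript length. Unlike the CPM values, TPM values carry no TMM scaling. The 2 scales thus differ in more than length, and which part moved a value between them was not tested. In batch 1 of BCAM high Arntl was the most abundant member at 70.5 TPM, ahead of Per1 at 58.1 TPM and Nr1d1 at 34.3 TPM, and Dbp the least abundant at 1.55 TPM. In batch 2 of that group Nr1d1 led at 120 TPM, followed by Per1 at 73.9, Tef at 59.7, Nr1d2 at 46.9 and Per3 at 41.6 TPM, and Arntl was at 31.8 TPM. In BCAM high the order of the loop's transcripts thus changed between batches, while Per1 came directly after the leading gene in both. In batch 2 of BCAM low Nr1d1, Tef and Per3 (65.8, 35.7 and 34 TPM) came before Per1 (31.7 TPM), and in batch 1 of differentiated Per1 (33.4 TPM) and Nr1d1 (32.7 TPM) led. On TPM, 7, 7 and 4 members were without overlap in BCAM high, BCAM low and differentiated, beside 15.2%, 11.9% and 16.7% of all genes tested. On CPM these counts were 9, 9 and 8, beside 18.9%, 18.3% and 21.7%. Arntl, Per3, Nr1d2 and Dbp were without overlap in all 3 groups on both scales, beside 0.950% of all genes that were so on TPM and 1.87% on CPM.

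Libraries also varied within a batch. As one number per library, the mean log2 CPM of Per1, Per2, Per3, Nr1d1, Nr1d2, Dbp and Tef was taken minus that of Arntl, Npas2 and Nfil3. This difference ran from -1.02 to 0.56 over the 15 batch 1 libraries and from 1.81 to 2.83 over the 9 batch 2 libraries. Within batch 1, replicate 5 was the highest in each group, at -0.13, -0.04 and 0.56 for BCAM high, BCAM low and differentiated. Within batch 2, replicate 8 was the lowest in each group, at 1.81, 1.96 and 2.09. Among the 5 libraries of batch 1, replicate 5 had the highest level in 12 of 21 combinations of gene and group for the first 7 genes, and the lowest in 7 of 9 for the other 3. The labels do not say that libraries with one number share an animal or a day. The spread left after group and batch (residual SD of log2 CPM, 18 degrees of freedom) was smallest for Arntl, at 0.28, and largest for Dbp, at 0.71, with a median over all genes tested of 0.40.

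**Figure D3:**
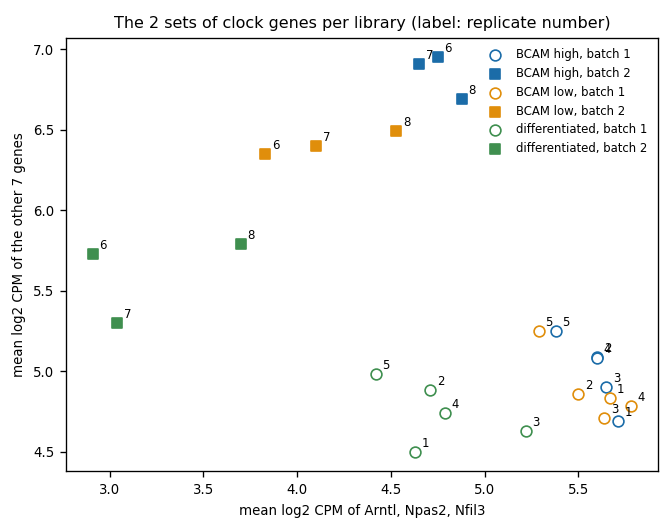
Mean log2 CPM of the 7 genes Per1, Per2, Per3, Nr1d1, Nr1d2, Dbp and Tef and of the 3 genes Arntl, Npas2 and Nfil3 in each of the 24 libraries, by group and replicate number. The difference between the sets stays at or below 0.56 in batch 1 and at or above 1.81 in batch 2.

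Clock genes that are no members were tested between batches with edgeR's quasi-likelihood test, adjusted over all genes. Of a list of 18, 15 had counts enough to be tested. The members, picked for their batch difference, were left out of this list, so its counts and medians do not stand for all clock genes. In BCAM high 3 of 15 rose and 0 fell, beside 4.93% and 3.11% of all genes tested. In BCAM low 2 rose and 0 fell, beside 6.48% and 4.66%, and in differentiated 2 rose and 2 fell, beside 9.98% and 10.2%. In either direction the background was 8.04%, 11.1% and 20.1%. The median log2 difference of the 15 was 0.42, 0.05 and 0.06. Clock, which encodes BMAL1's usual partner, was not called in any group, at 45.1 ± 2.69 and 36.9 ± 3.28 CPM in batches 1 and 2 of BCAM high (log2 difference -0.29, SE 0.24, edgeR adjusted p = 0.519).

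Cry2, a cryptochrome that represses the activating dimer together with PER, rose in batch 2 of all 3 groups without overlap. Its mean went from 25.2 ± 5.32 to 47.6 ± 9.38 CPM in BCAM high (log2 difference 0.92, SE 0.23, edgeR adjusted p = 0.0114). In BCAM low it went from 17.3 ± 6.25 to 40.8 ± 8.35 CPM (1.24, SE 0.24, edgeR adjusted p = 0.000641), and in differentiated from 34 ± 6.08 to 56.6 ± 4.89 CPM (0.73, SE 0.24, edgeR adjusted p = 0.0289). The call was lost without replicate 6 in BCAM high (0.74, edgeR adjusted p = 0.128) and without replicate 2, 6 or 7 in differentiated (0.63, 0.66 and 0.77, edgeR adjusted p = 0.073, 0.114 and 0.0596). Its paralogue Cry1 was low, at means of 1.86 to 11.5 CPM over groups and batches, and was not called.

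Bhlhe40 and Bhlhe41 encode DEC1 and DEC2, which compete with the dimer for E-boxes. Bhlhe40 rose from 192 ± 27.1 to 302 ± 33 CPM in BCAM high (0.65, SE 0.21, edgeR adjusted p = 0.0484) and fell from 155 ± 39.1 to 93.2 ± 40.5 CPM in differentiated (-0.73, SE 0.22, edgeR adjusted p = 0.0188); in BCAM low it was not called (0.21, SE 0.21, edgeR adjusted p = 0.578). Bhlhe41 rose in BCAM high, from 37.8 ± 5.44 to 108 ± 65.1 CPM (1.51, SE 0.46, edgeR adjusted p = 0.0484), with values of 1.38 and 1.15 in BCAM low and differentiated that did not pass (edgeR adjusted p = 0.0607 and 0.089). Both passed without replicate 8 (1.81 and 1.59, edgeR adjusted p = 0.00807 and 0.0103). The BCAM high call of Bhlhe40 was lost without any one of replicates 2 to 8, and that of Bhlhe41 without any one of replicates 1 to 7, where the value fell to 0.91 without replicate 6. The differentiated call of Bhlhe40 was lost without replicate 5, 6 or 7 (-0.57, -0.58 and -0.54). Among the other called genes, Btrc, a subunit of the ligase that turns over PER, rose in BCAM low (0.86, SE 0.21, edgeR adjusted p = 0.00557). In differentiated libraries Csnk1e, a kinase of PER, fell (-0.89, SE 0.23, edgeR adjusted p = 0.00563), a call lost without replicate 7 (-0.68, edgeR adjusted p = 0.076). Timeless, better known for its part at replication forks, rose there from 1.77 ± 1.24 to 11.1 ± 6.71 CPM (2.61, SE 0.58, edgeR adjusted p = 0.00141).

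The count of 3 in BCAM high was 2, 1, 1, 1, 1, 0, 1 and 2 without replicates 1 to 8 in turn. In differentiated libraries the count of 4 became 2 without replicate 6 and 1 without replicate 7. Ciart, a clock repressor with too few counts to be tested, had 0, 0, 6, 0 and 6 counts in batch 1 of BCAM high and 18, 5 and 57 in batch 2. Its counts were 1 to 10 and 9 to 16 in BCAM low, and 0 to 6 and 1 to 13 in differentiated libraries. Scaled to CPM, batch 2 lay above batch 1 in BCAM high (at least 1.77 against at most 1.47 CPM) and BCAM low (at least 3.97 against at most 2.22 CPM), and the batches overlapped in differentiated libraries.

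**Figure D4:**
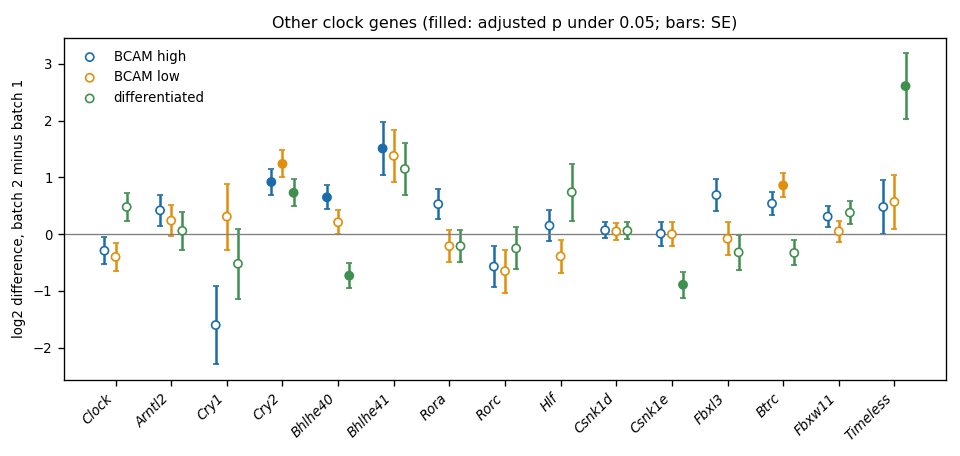
Log2 difference between batches (batch 2 minus batch 1) for the 15 tested clock genes that are no members, by group; filled points passed edgeR's test at an adjusted p under 0.05 and bars are standard errors. Cry2 is the only gene filled in all 3 groups, at 0.92, 1.24 and 0.73.

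Genes downstream of the clock and of 2 other inputs were tested the same way, beside the same shares of all genes called higher and lower: 4.93% and 3.11% in BCAM high, 6.48% and 4.66% in BCAM low, and 9.98% and 10.2% in differentiated. Of 6 clock output genes, 0 rose and 2 fell in BCAM high, 1 rose and 1 fell in BCAM low, and 1 rose and 2 fell in differentiated. Tsc22d3, the glucocorticoid-induced leucine zipper, fell in all 3 groups, from 727 ± 278 to 293 ± 53.3 CPM in BCAM high (-1.31, SE 0.35, edgeR adjusted p = 0.0242), from 448 ± 187 to 191 ± 66.2 CPM in BCAM low (-1.23, SE 0.35, edgeR adjusted p = 0.0268) and from 225 ± 56.6 to 58.6 ± 20.5 CPM in differentiated (-1.94, SE 0.37, edgeR adjusted p = 0.000843). This call was lost without replicate 6 or 7 in BCAM high and without replicate 5, 6 or 7 in BCAM low. Tspan4, a tetraspanin, rose in BCAM low (1.17, SE 0.28, edgeR adjusted p = 0.0057) and in differentiated (1.57, SE 0.31, edgeR adjusted p = 0.000481).

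Tsc22d3, which is also glucocorticoid-induced and fell in all 3 groups, was counted with the clock output genes and is left out here. Among 7 other glucocorticoid-responsive genes, 0 were called in BCAM high, 1 fell in BCAM low, and 2 rose and 2 fell in differentiated. There the kinase gene Sgk1 fell from 418 ± 85 to 104 ± 49.7 CPM (-2.01, SE 0.23, edgeR adjusted p = 4.52e-07) and Errfi1, a feedback inhibitor of EGFR, rose from 122 ± 55 to 271 ± 77.4 CPM (1.15, SE 0.32, edgeR adjusted p = 0.0142). The Errfi1 call was lost without replicate 6 (0.91, edgeR adjusted p = 0.1). Of 8 immediate early genes, 3 rose and 1 fell in BCAM high, 0 rose and 1 fell in BCAM low, and 4 rose and 2 fell in differentiated. In the last group Ier2 rose by 1.55 (SE 0.27, edgeR adjusted p = 0.000297) and the nuclear receptor gene Nr4a1 changed by -1.25 (SE 0.20, edgeR adjusted p = 4.93e-05). The median log2 differences of these 7 glucocorticoid-responsive genes, without Tsc22d3, were 0.00, -0.21 and -0.58 in BCAM high, BCAM low and differentiated. Those of immediate early genes were 0.20, -0.18 and 0.24.

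The sorted groups were then compared with each other, with batch as a covariate in the edgeR model. The 3 comparisons share libraries. Thyroid genes summed to 13682 to 25709 CPM in batch 1 and 48973 to 116143 CPM in batch 2 of differentiated. They reached at most 1276 CPM in BCAM high and 235 CPM in BCAM low. The differentiated group is thus not airway cells alone, and the part of this in the group differences was not tested. Replicate numbers were not part of this model, and the calls that a replicate block added are given further below. Between BCAM high and differentiated, 6 of 10 members were called, all higher in BCAM high, beside 19.4% of all genes called higher and 22.0% lower (41.3% in either direction). Arntl averaged 137 ± 61.4 CPM in BCAM high and 37.4 ± 17.7 CPM in differentiated (SD, n = 8), a log2 difference of 1.87 (SE 0.14, edgeR adjusted p = 5.6e-12), with the same value, 1.87, in batch 1 alone and 1.89 in batch 2 alone. In all 8 same-numbered comparisons BCAM high was the higher. Tef was higher by 1.04 (SE 0.20, edgeR adjusted p = 0.000143) and Per3 by 0.92 (SE 0.19, edgeR adjusted p = 0.000282), each in 8 of 8. Per2 was higher by 0.82 (SE 0.21, 6 of 8, edgeR adjusted p = 0.00193), Nfil3 by 0.76 (SE 0.28, 6 of 8, edgeR adjusted p = 0.0292) and Nr1d2 by 0.70 (SE 0.21, 7 of 8, edgeR adjusted p = 0.00899). The Nfil3 call was lost without BCAM high replicate 6, 7 or 8 (0.69, 0.70 and 0.71) and without differentiated replicate 4, 6 or 7 (0.68, 0.62 and 0.59).

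Apart from Arntl, these differences were larger in batch 2 alone than in batch 1 alone. Tef was 0.50 higher in batch 1 and 1.96 higher in batch 2, Per3 0.57 and 1.48, Per2 0.52 and 1.24, Nfil3 0.27 and 1.91, and Nr1d2 0.33 and 1.21. In batch 1 alone Per2, Nfil3 and Nr1d2 did not pass (edgeR adjusted p = 0.0888, 0.446 and 0.396). Nr1d1 was not called over both batches (-0.21, SE 0.28, edgeR adjusted p = 0.583), with -0.74 in batch 1 alone and 0.75 in batch 2 alone (edgeR adjusted p = 0.125 and 0.0117). Whether a group difference depended on batch was not tested, since the members were chosen by batch. Over both batches Npas2 (0.38), Per1 (0.34) and Dbp (0.96, SE 0.47) did not pass (edgeR adjusted p = 0.204, 0.0964 and 0.102). In batch 2 alone every member passed except Npas2 (0.68, edgeR adjusted p = 0.209). Per1 was there at 0.84 and Dbp at 1.22 (edgeR adjusted p = 0.0362 and 0.0119). In batch 1 alone Dbp had too few counts to be tested. Both calls also depended on single libraries. Over both batches, Dbp passed without BCAM high replicate 1 (1.09, edgeR adjusted p = 0.0349) or differentiated replicate 2 (1.27, edgeR adjusted p = 0.0282). Per1 passed without differentiated replicate 5 (0.42, edgeR adjusted p = 0.0447).

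Between BCAM low and differentiated, 5 of 10 members were called, all higher in BCAM low, beside 16.3% of all genes higher and 17.1% lower (33.5% in either direction). Arntl averaged 99.6 ± 43 CPM in BCAM low, 1.43 higher on the log2 scale than in differentiated (SE 0.14, 8 of 8, edgeR adjusted p = 2.22e-09), with 1.39 and 1.49 in batches 1 and 2 alone. Nfil3 was higher by 0.91 (SE 0.28, 7 of 8, edgeR adjusted p = 0.012), Tef by 0.89 (SE 0.20, 8 of 8, edgeR adjusted p = 0.001), Per3 by 0.64 (SE 0.19, 7 of 8, edgeR adjusted p = 0.0115) and Per2 by 0.59 (SE 0.21, 7 of 8, edgeR adjusted p = 0.0292). The Per2 call was lost without BCAM low replicate 4 or 6 (0.51 and 0.54) and without differentiated replicate 7 or 8 (0.47 and 0.52). Per2 did not pass in batch 1 alone (0.42, edgeR adjusted p = 0.175) or in batch 2 alone (0.82, edgeR adjusted p = 0.141). In batch 1 alone, where Dbp had too few counts to be tested, 3 members passed, 2 of them among those 5: Arntl and Tef (0.57, edgeR adjusted p = 0.00827). The other was Nr1d1, which was lower in BCAM low in batch 1 (-1.01, edgeR adjusted p = 0.041) and not in batch 2 (0.19) or over both (-0.61, SE 0.28, edgeR adjusted p = 0.0986). Nr1d2 was higher in 8 of 8 comparisons without passing (0.43, SE 0.21, edgeR adjusted p = 0.124); it passed without differentiated replicate 5 (0.64, edgeR adjusted p = 0.00992). Dbp was not called (0.94, SE 0.47, edgeR adjusted p = 0.129) and passed without differentiated replicate 2 (1.27, edgeR adjusted p = 0.0384).

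Between the BCAM groups, 1 of 10 members was called, beside 2.43% of all genes called higher there and 4.59% lower (7.02% in either direction). Arntl exceeded its BCAM low level by 0.45 in log2 (SE 0.13, 8 of 8, edgeR adjusted p = 0.028), with 0.48 and 0.40 in batches 1 and 2 alone. This call was lost on leaving out any one of 7 libraries (BCAM high replicates 1, 2, 4 and 8, BCAM low replicates 3, 5 and 6), while the value stayed between 0.38 and 0.51. Per1 was also higher in 8 of 8, by 0.44 (SE 0.16, edgeR adjusted p = 0.106; 0.55 and edgeR adjusted p = 0.0396 without BCAM low replicate 8), and Per3 in 8 of 8, by 0.29 (SE 0.18, edgeR adjusted p = 0.401). Of the other 7, none passed (edgeR adjusted p of 0.451 or more). Mean Arntl was thus ordered BCAM high, BCAM low and differentiated in each batch; the first step of that order did not pass in batch 2 alone (edgeR adjusted p = 0.519), and single libraries of the BCAM groups overlapped in both batches.

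**Figure D5:**
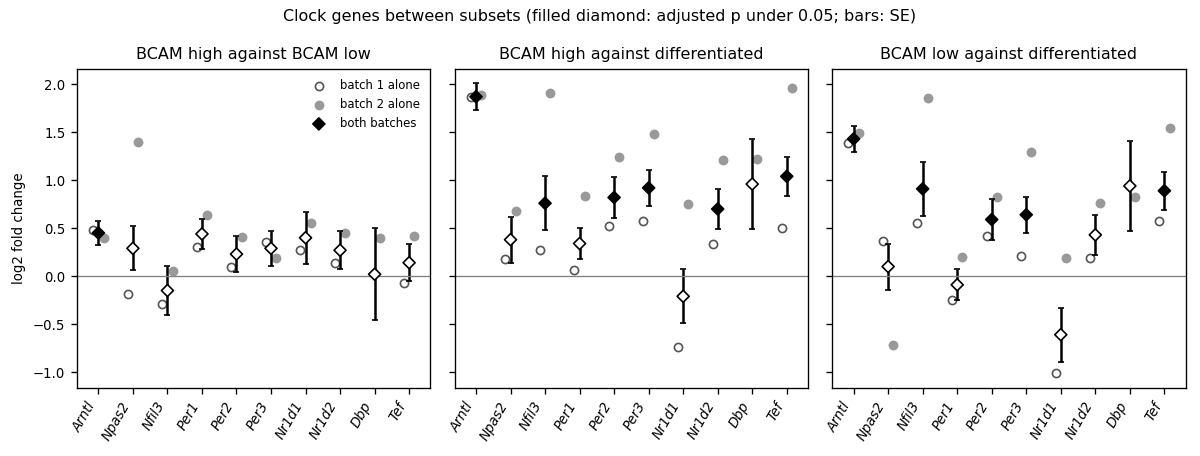
Log2 differences of the 10 members between the 3 pairs of sorted groups, over both batches and in each batch alone. Dbp has no value in batch 1 alone, where it had too few counts to be tested. Arntl is 1.87 higher in BCAM high and 1.43 higher in BCAM low than in differentiated libraries, with near-equal values in each batch; against differentiated libraries, the batch 2 values of Tef, Per3 and Nr1d2 lie above their batch 1 values.

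Genes whose profile over the 24 libraries, centred within group, lay nearest to the mean of Arntl, Npas2 and Nfil3 included Krt7 and Tmsb4x, by root mean square difference in log2 CPM (0.20 and 0.28; 9036 genes compared, median 0.76). Krt7, a simple-epithelium keratin, had means of 850 and 571 CPM in batches 1 and 2 of BCAM high, 1202 and 488 CPM in BCAM low, and 765 and 324 CPM in differentiated. The members themselves lay 0.26 to 0.44 from their own mean. Nearest to the mean of the other 7 members were St6galnac2, Dpysl3 and Hes6 (0.27, 0.31 and 0.31; median 0.82), while those members lay 0.35 to 1.01 from it. St6galnac2, a sialyltransferase gene, went from 33.5 to 151 CPM in BCAM high, 52.3 to 143 CPM in BCAM low and 13.5 to 27.4 CPM in differentiated. Both profiles include the step between batches, and the likeness is a description over the same 24 libraries from which the members were chosen.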

How the data were processed

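RNA abundance was measured in 24 libraries of sorted mouse tracheal cells, prepared by SmartSeq2 and sequenced as 38 bp read pairs on a NextSeq500, per the labels' protocols. The authors deposited one table per library that gives, per the file headers, an estimated count and a TPM value for each transcript. The submitters' processing notes name kallisto 46.1, Picard and GRCm39; no source used here gives options or the strand setting. The estimated counts as deposited carry no normalization, and the TPM values deposited by the authors are scaled to transcript length, without TMM factors.

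Of 117497 transcripts, 116374 matched GENCODE M21 (GRCm38), whose coordinates are printed and which is not the authors' index; the 1123 others held 0.317% to 0.594% of a library's counts and were left out. Estimated counts were summed over 35855 genes and rounded. Totals were 1824619 to 4440072 per library, so values of a few CPM rest on few reads, and amplified reads are not independent molecules. No 2 libraries held identical values.

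Tests used edgeR 4.0.16 in R 4.3.3 (robust quasi-likelihood fit, TMM factors, default filter on low counts, 12211 genes tested). Genes were called at a Benjamini-Hochberg adjusted p under 0.05. Groups were compared in a model of 3 group means plus a batch term, and batches in one with a mean for every combination of group and batch, both over all 24 libraries. No label says that replicates came from separate animals, so p-values measure the spread between these libraries, which may be technical. The members, gene lists and tests were chosen with earlier results of these data known. Named are all members, every called clock gene of a list of 18, up to 2 called genes by largest change from each further list, and the 3 nearest genes of each set with a mean of at least 10 CPM. A gene that met this rule is not reported here. A prior count of 2 was used for log2 CPM. The scripts were tested on simulated data. Alternatives were DESeq2 1.42.0 size factors and its Wald test, no filter, each batch alone, a replicate block, the other design, each library left out and, chosen after seeing the data, the deposited TPM.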

Additional observations from a re-analysis of the deposited data

Results flagged for a closer look

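In 4 instances a member had a library far from the others of its group and batch, by the gap to the nearest library as a share of the range (Dixon's criterion, 5 libraries each). Of 30 sets of batch 1 libraries examined, 4 met it, where chance alone gives about 1 in 20. Per3 was low in replicate 1 of differentiated, batch 1, at 15.6 CPM. Nr1d2 was low in replicate 3 of BCAM high, batch 1, at 14.4 CPM, and high in replicate 5 of BCAM low, batch 1, at 35 CPM. Dbp was high in the same replicate 5 of BCAM low, at 3.55 CPM. All these libraries lay below every batch 2 library of their group for the gene concerned.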

How the results depend on the processing

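DESeq2 size factors shifted the median of all genes by at most 0.02 and changed the sign of no member. The DESeq2 Wald test also called Dbp between BCAM high and differentiated (0.99, adjusted p = 0.0372), Nr1d1 between BCAM low and differentiated (-0.63, adjusted p = 0.0397) and Bhlhe41 between batches in BCAM low (1.38, adjusted p = 0.0305). With all low-count genes kept, edgeR called Per1 between BCAM high and differentiated (0.44, adjusted p = 0.0325) and no longer Bhlhe41 in BCAM high (1.46, adjusted p = 0.108). In batch 1 alone, where Dbp had too few counts to be tested, 3 members were called between BCAM high and differentiated and 3 between BCAM low and differentiated. The differences of Npas2 (-0.19) and Tef (-0.07) between the BCAM groups reversed there. Between BCAM high and differentiated, every member but Npas2 was called in batch 2 alone. In batch 2 alone, 0 members and 543 genes were called between the BCAM groups and 2221 genes between BCAM low and differentiated; reversed were Nfil3 between the BCAM groups (0.05), Nr1d1 between BCAM high and differentiated (0.75), and Npas2 (-0.72), Per1 (0.20) and Nr1d1 (0.19) between BCAM low and differentiated. Fitting every combination of group and batch gave 2 members and 1318 genes between the BCAM groups, with Nr1d1 at 0.00 (BCAM high against differentiated) and Npas2 at -0.18 (BCAM low against differentiated). On deposited TPM, 4 members were without overlap in differentiated, and Npas2 in BCAM high (0.65) and Tef in differentiated (0.46) reversed. With only the 8 libraries of a group, 5 other clock genes and 1623 genes were called between batches in BCAM high, and 2 other clock genes in differentiated. The cause of these changes was not tested. Same-numbered libraries deviated together, with small correlations (0.03 to 0.18, over 0.1 in 7 of 24 pairs). In 23 of 24 pairs the same-numbered library was the best match. What libraries with one number share is not labelled and was not tested, and the main fit left the numbers out. With the replicate block, 2 members were called between the BCAM groups, with Per1 added (0.46, edgeR adjusted p = 0.0387), and Dbp was at -0.02. The block also added Per1 between BCAM high and differentiated (0.35, edgeR adjusted p = 0.0418) and Nr1d1 (-0.67, edgeR adjusted p = 0.0466) and Nr1d2 (0.45, edgeR adjusted p = 0.0475) between BCAM low and differentiated.

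Leaving out each library in turn gave 0 to 2 members called between the BCAM groups, where Dbp ran from -0.08 to 0.24, while Npas2 between BCAM low and differentiated ran from -0.01 to 0.23. Between batches, 0 to 2 other clock genes were called in BCAM high and 1 to 6 in differentiated. Genes called between batches ran from 394 to 984 in BCAM high (moved by over 1.5 times without replicate 2, 6 or 7), from 749 to 1290 in BCAM low (without replicate 6 or 7) and from 1506 to 2806 in differentiated (without replicate 7). Depth limits Dbp in batch 1, where a library held 0 to 16 counts, and kept Ciart, Rorb and Fbxl21 from being tested. Nfil3 in batch 2 of differentiated and Npas2 in batch 2 of BCAM low also rest on few counts.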
